A study of Mus musculus with 32 samples.

Results

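Subunits of the GABA-A receptor encoded by 7 genes, *Gabra2*, *Gabra3*, *Gabra4*, *Gabra5*, *Gabrb1*, *Gabrb2* and *Gabrd*, were examined in RNA-seq counts from the mouse striatum. They were taken by name from the count tables, where they are 7 of 19 subunit genes and 7 of 23420 gene rows, and all 7 passed the filter on low counts that left 15589 genes for testing. RNA came from striatal punches, pooled over both hemispheres, of 16 naïve mice of about 50 days. Of these, 8 were C57BL/6J (B6) littermates and 8 were B6.D2 congenic mice, which carry 1 copy of a DBA/2J-derived (D2) segment of chromosome 11 on the B6 background. The study also described a residual D2 marker on another chromosome that occurred in mice of both genotypes of this line, and its genotype in these mice was not in the labels used here. The study's methods give both sexes, in the same numbers for each genotype. The sex and home cage of single mice were not in the labels used here, and the congenic mice represent a single congenic line. None of the 7 genes lies in the D2 segment. *Gabrb2* is on chromosome 11 as well, but proximal to the segment.

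GABA-A receptors are chloride channels built from 5 subunits and opened by the inhibitory transmitter GABA. Most contain α and β subunits, which together form the GABA site, with a further subunit such as γ or δ. The α subunit sets much of the pharmacology, including the response to benzodiazepines, while receptors with the δ subunit lie outside synapses, often pair it with α4 in the forebrain, and carry a tonic current. In the striatum most neurons are GABA-releasing projection neurons that also receive GABA from their neighbours and from interneurons.

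The 4 α genes are found on 3 chromosomes. On GRCm38.p6 (RefSeq), *Gabra2* spans chr5:70958392-71095849 and *Gabra4* spans chr5:71569734-71658308, both on the minus strand, whereas *Gabra3* is X-linked (chrX:72432676-72656919, minus) and *Gabra5* is on chr7:57407669-57591016 (minus). The β genes are *Gabrb1* at chr5:71657921-72149572 and *Gabrb2* at chr11:42419515-42632591, both on the plus strand. *Gabrd*, the δ gene, is the shortest at chr4:155384979-155398098 (minus). The coding sequences of the mm9 GENCODE annotation gave proteins of 449 to 552 residues. The 4 α proteins were 61.2% to 74.2% identical to each other, β1 and β2 were 79.9% identical, and δ shared 34.0% to 44.7% with the other 6. For each gene, the 50-base windows of the transcript with the longest coding part were searched in the protein-coding transcripts of other genes. Despite the likeness of the proteins, 0 windows of *Gabra3*, *Gabra4*, *Gabra5*, *Gabrb1*, *Gabrb2* and *Gabrd* occurred there, and 34 of 2343 did so for *Gabra2*. Exact matches of the read length used here were thus rare for these transcripts. Exons outside them, noncoding genes and pseudogenes were not searched.

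*Gabra4* and *Gabrb1* start on opposite strands and their RefSeq gene bodies overlap by 388 bases at the 5′ ends. The promoter windows of this pair and of *Gabra3* are shown because the pair differed most in level among the 7 genes and *Gabra3* is the member that the study itself listed among its changed genes. Each runs 5′ to 3′ on the strand of its gene, from 250 bases before to 50 bases after a start site in RefSeq (GRCm38.p6), with CG dinucleotides in capitals. The windows are chrX:72656870-72657169 (minus) for *Gabra3*, chr5:71658259-71658558 (minus) for *Gabra4* and chr5:71657671-71657970 (plus) for *Gabrb1*.
Gabra3: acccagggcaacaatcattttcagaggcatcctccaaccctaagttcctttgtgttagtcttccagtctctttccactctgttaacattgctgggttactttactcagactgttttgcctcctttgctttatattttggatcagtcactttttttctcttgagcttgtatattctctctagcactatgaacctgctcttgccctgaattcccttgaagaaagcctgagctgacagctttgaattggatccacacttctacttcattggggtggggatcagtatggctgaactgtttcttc
Gabra4: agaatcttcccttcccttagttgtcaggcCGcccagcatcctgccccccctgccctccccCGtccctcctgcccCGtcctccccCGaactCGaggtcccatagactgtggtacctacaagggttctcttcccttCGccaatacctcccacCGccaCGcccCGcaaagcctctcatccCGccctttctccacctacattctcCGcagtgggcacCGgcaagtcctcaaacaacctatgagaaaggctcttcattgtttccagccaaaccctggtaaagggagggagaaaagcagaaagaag
Gabrb1: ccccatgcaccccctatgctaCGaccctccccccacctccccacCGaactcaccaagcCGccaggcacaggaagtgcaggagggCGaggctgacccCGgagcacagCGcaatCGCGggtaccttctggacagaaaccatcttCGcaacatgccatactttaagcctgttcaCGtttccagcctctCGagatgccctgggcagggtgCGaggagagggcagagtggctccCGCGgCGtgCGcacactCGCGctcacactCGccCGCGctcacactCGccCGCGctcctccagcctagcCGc
The *Gabra3* window held 0 CG dinucleotides, as did 5.43% of the 32851 mouse promoter windows of 300 bases. The *Gabra4* window held 12 and the *Gabrb1* window shown held 25, against a median of 7 over all windows, and 18.4% of windows held 25 or more. That *Gabrb1* window belongs to its upstream start, which lies outside the mm9 gene model that gave its exon length. The window of a downstream *Gabrb1* start, chr5:71699682-71699981 (plus), held 9. CG is its own reverse complement, so the count is the same on both strands.

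Gene counts per mouse ranged from 19032826 to 33748353 (median 29352254). For B6 mouse 7 a single lane file was used here, while 15 mice had 2. The libraries of B6 mouse 8 and congenic mouse 1 stood apart. Of all counts tallied for a mouse, on genes or not, 11.3% lay outside annotated genes in B6 mouse 8 and 10.2% in congenic mouse 1. The other 14 mice were at 14.5% to 15.9%. Counts of alignments that were not unique reached 27.3% of this total in congenic mouse 1. The label striatum was checked with markers of its projection neurons, and *Ppp1r1b* (DARPP-32) was at 1284 ± 222 CPM (counts relative to library size, scaled by TMM) in B6 and 1403 ± 229 in congenic mice (SD, n = 8 each). The dopamine receptor genes *Drd1a* and *Drd2* were at 239 ± 36.3 and 136 ± 22.9 CPM in B6. *Slc17a7*, the vesicular glutamate transporter of cortical neurons, was also present, at 415 ± 81.9 CPM in B6 and 268 ± 82.2 in congenic mice, as was *Tbr1*, a transcription factor of cortical glutamatergic neurons, at 46.5 ± 8.48 and 32.6 ± 9.20 CPM.

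Levels of different genes were compared as CPM per kilobase of annotated exon. The δ and α4 genes led this order and *Gabrb1* closed it. *Gabra4* was at 50.5 ± 6.33 CPM per kb in B6 and 46.9 ± 2.47 in congenic mice, and *Gabrd* at 44.0 ± 3.59 and 45.7 ± 2.59. *Gabrb2* followed at 27.5 ± 3.15 and 26.3 ± 2.16, and *Gabra3* at 22.8 ± 2.22 and 19.6 ± 1.81. *Gabra2* was at 15.3 ± 2.65 and 14.2 ± 2.89, and *Gabra5* at 11.3 ± 1.39 and 9.75 ± 0.846. *Gabrb1* was at 4.36 ± 1.05 CPM per kb in B6 and 3.17 ± 0.495 in congenic mice. Over the 16 mice *Gabra4* was thus 12.9-fold above *Gabrb1*, and in single mice the ratio ran from 9.07 to 21.0. The upstream start of *Gabrb1* faces that of *Gabra4*, and which *Gabrb1* start was in use was not tested. The counts did not use the strand and left out reads that overlapped several genes. Whether reads from the overlap of *Gabra4* and *Gabrb1* were lost in this way was not tested.

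Neighbours in this order were compared within each mouse by an exact two-sided sign-flip test of the log2 ratio. The order was taken from the same 16 mice, so these p-values are not an independent test of it. *Gabrd* exceeded *Gabrb2*, *Gabrb2* exceeded *Gabra3*, *Gabra3* exceeded *Gabra2* and *Gabra5* exceeded *Gabrb1* in all 16 mice, and for these 4 of the 6 neighbouring pairs the exact sign-flip p was 3.05e-05, the smallest that 16 mice allow. *Gabra2* exceeded *Gabra5* 1.38-fold in 14 of 16 mice (exact sign-flip p = 0.000793). *Gabra4* exceeded *Gabrd* by only 1.08-fold, in 13 of 16 mice (exact sign-flip p = 0.00177), comprising all 8 B6 mice and 5 of 8 congenic mice. With the length of the longest transcript in place of all exons, that ratio was 1.02 with 10 of 16 mice above (exact sign-flip p = 0.318), so the first place in the order cannot be assigned. The other 5 neighbours kept their order with either length. These lengths come from an annotation of mm9, while the reads were counted on mm10, and *Gabrb1* has an upstream start in RefSeq that lies outside its mm9 gene model.

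Expressed as shares of the summed per-length level of the 7 genes, *Gabra4* made up 28.5% ± 1.75 over the 16 mice and *Gabrd* 26.3% ± 2.2. *Gabrb2* contributed 15.7% ± 1.24, *Gabra3* 12.4% ± 1.38, *Gabra2* 8.62% ± 1.42, *Gabra5* 6.17% ± 0.659 and *Gabrb1* 2.19% ± 0.489. Among the 4 α genes alone, *Gabra4* held 51.2% ± 3.32 and *Gabra3* 22.3% ± 2.22, and of the 2 β genes *Gabrb2* held 87.8% ± 2.84. The 7 genes held 57.4% ± 1.5 of the summed per-length level of all 19 subunit genes in B6 and 57.4% ± 1.12 in congenic mice (exact permutation p = 0.895, n = 8 each). The remaining subunit genes were not analysed singly here.

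**Figure D1:**
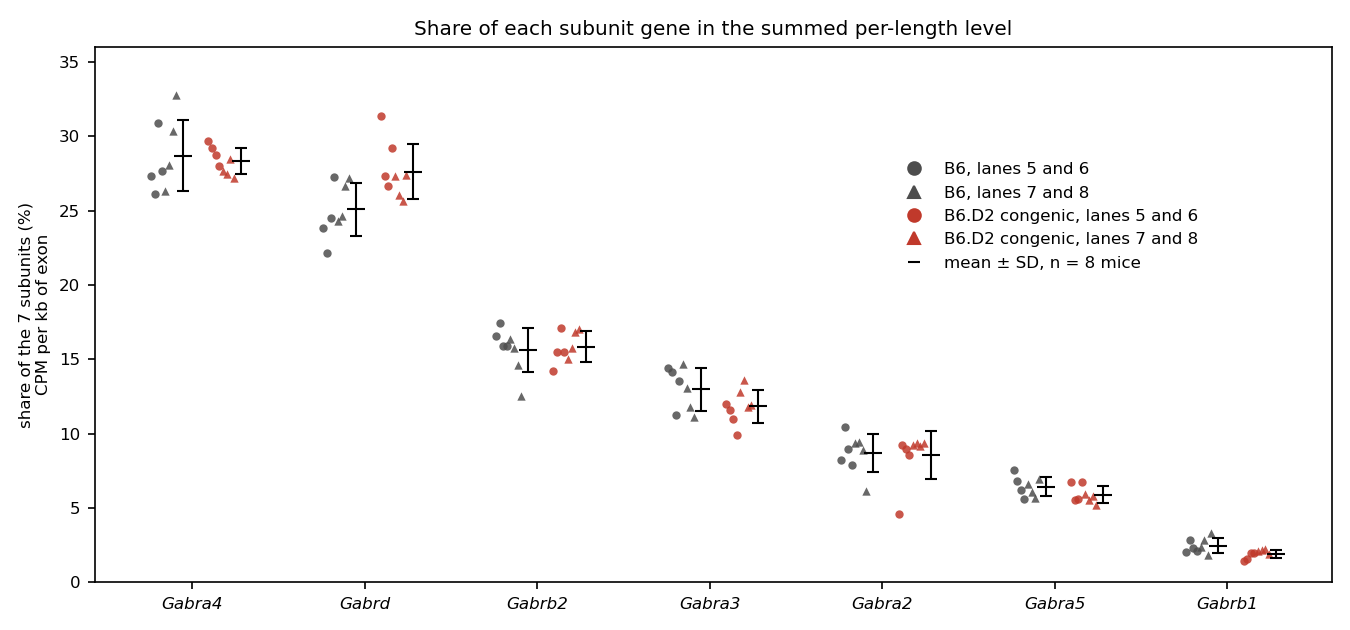
Share of each subunit gene (y axis, percent) in the summed CPM per kb of the 7 genes, one point per mouse, with genes on the x axis in order of level, genotype by colour and lane pair by shape, and bars giving the mean ± SD of 8 mice. *Gabra4* and *Gabrd* hold the largest shares in both genotypes (25.1% to 28.7% on average), every congenic mouse lies above the B6 median for *Gabrd* and below it for *Gabrb1*, and congenic mouse 1 is alone at the bottom for *Gabra2* (4.58%).

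The genotype comparison asks whether the D2 segment goes with a change in striatal expression of these receptor genes. In the edgeR quasi-likelihood test over all 15589 genes, 3 of the 7 genes were lower in B6.D2 congenic mice at an unadjusted p under 0.05, *Gabra3*, *Gabra5* and *Gabrb1*, and 0 were higher. Over all genes tested, 5.14% were past that threshold and lower in congenic mice and 4.86% were past it and higher. After Benjamini-Hochberg adjustment over all genes (FDR), 0 of the 7 passed 5%, and the lowest FDR among them was 0.346 (*Gabrb1*). DESeq2 and edgeR's likelihood ratio test likewise put 3 of the 7 under an unadjusted p of 0.05 and 0 under an FDR of 5%. Over all 15589 genes, DESeq2 put 1613 and the likelihood ratio test 1496 under that p, and 25 and 20 under that FDR. In the quasi-likelihood test only 1 gene of all those tested (0.00641%) passed an FDR of 5%. Of the 7 genes, 6 had the lower mean in congenic mice. Their median log2 fold change was -0.11, against 0.01 over all genes, of which 45.1% had the lower mean in congenic mice. In bulk tissue a lower count can come from fewer cells that express a gene or from less RNA per cell, and these cannot be told apart.

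*Gabra3* encodes α3, an α subunit of benzodiazepine-sensitive receptors that is prominent in the cortex, in brainstem monoamine neurons and in the reticular thalamus. Its level was 78.5 CPM in the lowest, 88.4 in the median and 105 in the highest B6 mouse, and 64.5, 76.2 and 88.9 CPM in congenic mice. Of the 8 congenic mice, 5 lay below every B6 mouse, and 3 B6 mice lay above every congenic mouse, so the groups overlapped. The means were 89.3 ± 8.70 CPM in B6 and 76.8 ± 7.09 in congenic mice (SD, n = 8 each), 1.16-fold lower in the latter. The edgeR log2 fold change was -0.22 ± 0.07 (SE, edgeR quasi-likelihood p = 0.00363, FDR = 0.361), and the exact two-sided permutation test of the 8 against 8 mice gave p = 0.00668. Since the study listed this gene from the same mice, its direction here is not independent of that choice. The difference was not alike in both sequencing sets. In mice 1 to 4, run on lanes 5 and 6, the log2 fold change was -0.35 ± 0.09 (SE), and in mice 5 to 8, run on lanes 7 and 8, it was -0.09 ± 0.07 (SE). The interaction of genotype and lane pair was 0.26 on the log2 scale (edgeR quasi-likelihood p = 0.0469, FDR over all genes = 0.950), so it did not pass the adjustment. Congenic mice 1 to 4 were at 64.5 to 80.3 CPM and congenic mice 5 to 8 at 75.3 to 88.9 CPM. B6 mice 1 to 4 were at 85.4 to 105 CPM and B6 mice 5 to 8 at 78.5 to 95.7 CPM, and the ranges overlap within each genotype.

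*Gabra5* encodes α5, a largely extrasynaptic α subunit best known from hippocampal pyramidal cells. It ran from 24.9 through a median of 30.5 to 34.0 CPM in B6 and from 22.2 through 25.5 to 29.6 CPM in congenic mice. All 8 congenic mice were below the B6 median, 2 were below every B6 mouse, and 4 B6 mice were above every congenic mouse. Means were 30.0 ± 3.68 and 25.9 ± 2.24 CPM, with a log2 fold change of -0.22 ± 0.07 (SE, edgeR quasi-likelihood p = 0.00963, FDR = 0.397) and an exact permutation p of 0.0207. The log2 fold change was -0.18 ± 0.11 (SE) within lanes 5 and 6 and -0.26 ± 0.09 within lanes 7 and 8. In the mm9 annotation 118 of its 2653 exon bases are also covered by *Gm9962* on the other strand, and the counts did not use the strand, so reads from those bases cannot be assigned to either gene.

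*Gabrb1* encodes β1 and had the lower mRNA level of the 2 β genes examined. It was at 9.76 CPM in the lowest, 13.1 in the median and 18.6 in the highest B6 mouse, and at 6.87, 10.2 and 11.6 CPM in congenic mice. All 8 congenic mice were below the B6 median, and 5 of the 8 B6 mice were above every congenic mouse. The means, 13.5 ± 3.25 and 9.79 ± 1.53 CPM, differed 1.38-fold, with a log2 fold change of -0.46 ± 0.14 (SE, edgeR quasi-likelihood p = 0.00300, FDR = 0.346) and an exact permutation p of 0.0107. It was the member with the fewest reads, 186 to 569 per mouse, where counting error alone gives a coefficient of variation of 7.33% at the lowest count. The observed coefficient of variation was 24.1% in B6 and 15.6% in congenic mice. The 2 libraries that stood apart were the extremes, with B6 mouse 8 the highest of all and congenic mouse 1 the lowest, and without them the log2 fold change was -0.33 ± 0.11 (SE, edgeR quasi-likelihood p = 0.00916). Within lanes 5 and 6 it was -0.53 ± 0.19 (SE) and within lanes 7 and 8 it was -0.41 ± 0.17.

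*Gabrb2* encodes β2 and had the higher mRNA level of the 2 β genes examined. It was at 228 to 326 CPM in B6 (median 270) and 222 to 288 CPM in congenic mice (median 266). The congenic mice were split by the B6 median, with 4 above and 4 below it. The log2 fold change was -0.06 ± 0.07 (SE, edgeR quasi-likelihood p = 0.365, FDR = 0.764), with a 95% interval from -0.21 to 0.08. Its sign was not the same in the 2 lane pairs, at -0.17 ± 0.10 (SE) in lanes 5 and 6 and 0.05 ± 0.07 in lanes 7 and 8. The lowest mouse of each genotype was again a library that stood apart, B6 mouse 8 or congenic mouse 1.

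*Gabra2*, whose α2 subunit is concentrated at synapses of the forebrain, was at 27.0 to 47.3 CPM in B6 (median 36.6) and 17.2 to 39.1 CPM in congenic mice (median 36.2). The lowest mice were B6 mouse 8 and congenic mouse 1, the same libraries as for *Gabrb2*. The 7 other congenic mice were at 36.4 ± 1.56 CPM, within the B6 range. The log2 fold change was -0.10 ± 0.14 (SE, edgeR quasi-likelihood p = 0.460, FDR = 0.816), with a 95% interval from -0.40 to 0.19, and it was -0.01 without congenic mouse 1. It was -0.27 ± 0.24 (SE) within lanes 5 and 6, which include that mouse, and 0.06 ± 0.10 within lanes 7 and 8.

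*Gabra4* and *Gabrd* encode the α4 and δ subunits that form extrasynaptic receptors. *Gabra4* was at 181 to 248 CPM in B6 (median 202) and at 180 to 213 CPM in congenic mice (median 192), with 7 of 8 congenic mice under the median of B6, and edgeR gave a log2 fold change of -0.11 ± 0.07 (SE, edgeR quasi-likelihood p = 0.116, FDR = 0.588, 95% interval -0.25 to 0.03). B6 mice 3 and 8 alone exceeded all congenic mice. *Gabrd* was the only member with the higher mean in congenic mice, 131 ± 7.45 CPM against 126 ± 10.3 in B6, and 6 of 8 congenic mice were above the B6 median. The log2 fold change was 0.05 ± 0.05 (SE, edgeR quasi-likelihood p = 0.310, FDR = 0.725, 95% interval -0.06 to 0.16), with 0.14 ± 0.08 (SE) in lanes 5 and 6 and -0.03 ± 0.06 in lanes 7 and 8. For *Gabra2*, *Gabra4*, *Gabrb2* and *Gabrd* the differences were therefore not detectable against the spread between mice.

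**Figure D2:**
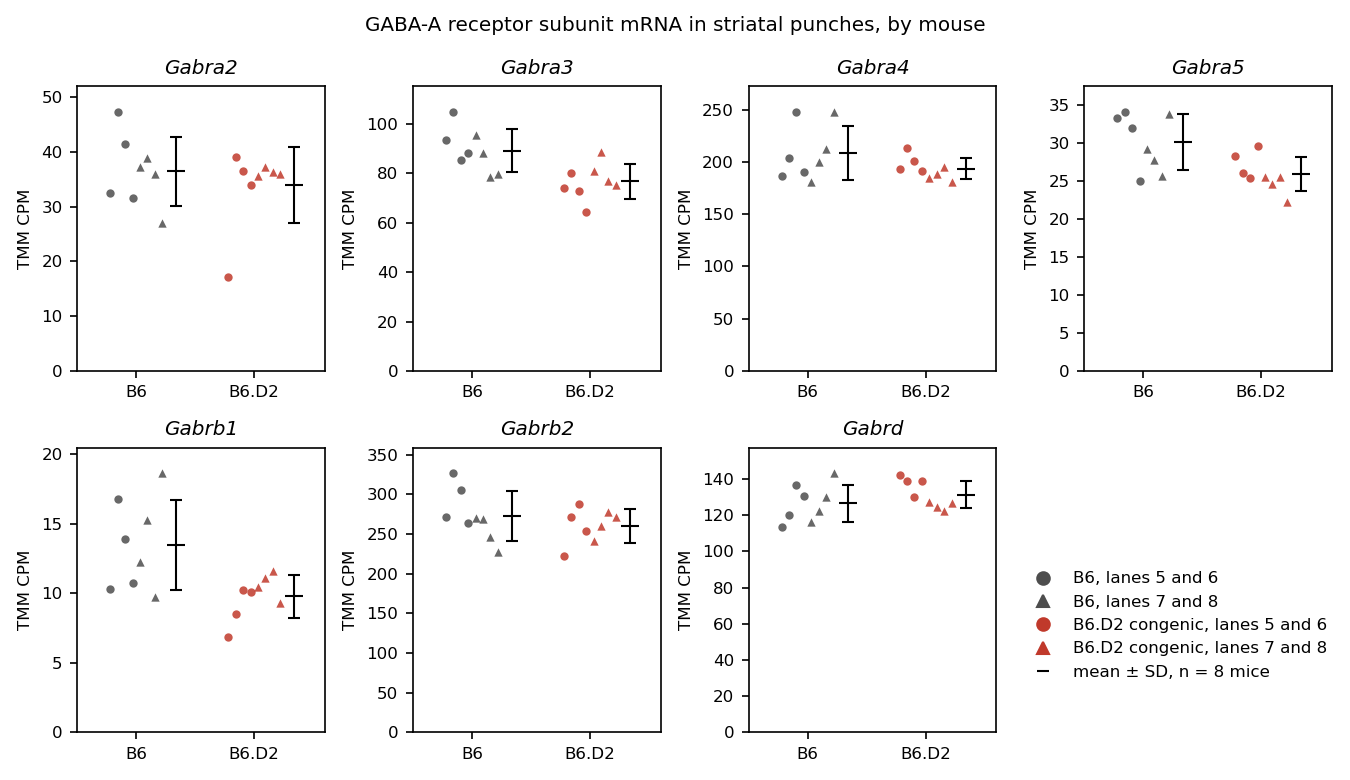
TMM-scaled CPM (y axis, from 0) of the 7 genes in each of 8 B6 and 8 B6.D2 congenic mice (x axis), with circles for lanes 5 and 6, triangles for lanes 7 and 8, and bars giving the mean ± SD. The genotypes overlap for every gene, and all 8 congenic mice fall below the B6 median for *Gabra5* and *Gabrb1*.

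**Figure D3:**
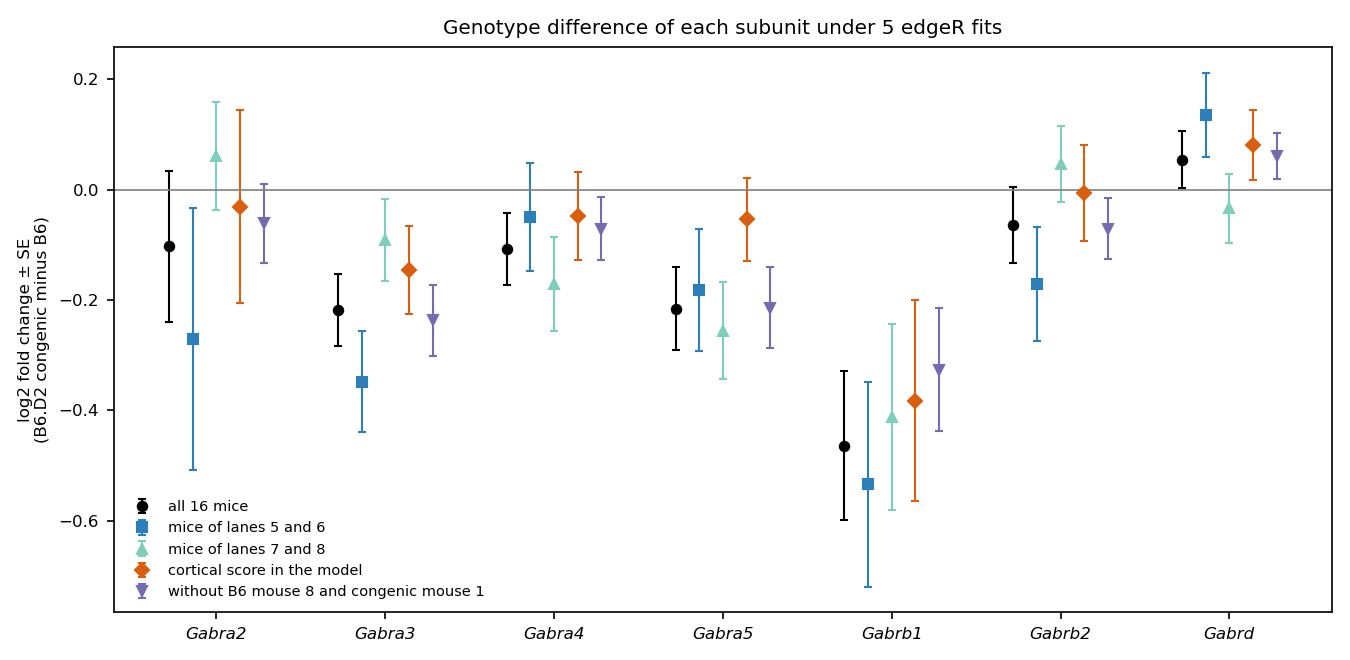
Log2 fold change (B6.D2 congenic minus B6, y axis) with its SE for each gene (x axis) under 5 edgeR fits, marked by colour and shape. *Gabra3*, *Gabra4*, *Gabra5* and *Gabrb1* stay below 0 in all 5, *Gabra2*, *Gabrb2* and *Gabrd* change sign between the lane pairs, and *Gabra5* moves from -0.22 to -0.05 when the cortical score is in the model.

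The composition of the 7 genes was then compared between genotypes. The summed per-length level was 176 ± 11.3 CPM per kb in B6 and 165 ± 5.90 in congenic mice (exact permutation p = 0.0427, n = 8 each). The share of *Gabrd* was higher in congenic mice, 27.6% ± 1.85 against 25.1% ± 1.81, with all 8 congenic mice above the B6 median (exact permutation p = 0.0113, n = 8 each). The share of *Gabrb1* was lower, 1.91% ± 0.294 against 2.47% ± 0.50, with all 8 congenic mice below the B6 median (exact permutation p = 0.0172, n = 8 each). *Gabra3* took 11.8% ± 1.1 against 13% ± 1.44 (exact permutation p = 0.0903) and *Gabra5* 5.90% ± 0.569 against 6.44% ± 0.663 (exact permutation p = 0.101). The shares of *Gabra4*, *Gabrb2* and *Gabra2* differed by -0.39, 0.22 and -0.12 percentage points (exact permutation p = 0.679, 0.746 and 0.863). Of the 7 shares tested, 2 were thus under 0.05 before any allowance for the number of tests. Shares of a fixed sum depend on one another, and the *Gabrd* share was higher while its own level was not detectably different.

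Within the lane pairs the difference in share kept its direction for both genes. For *Gabrd* it was 4.19 percentage points in lanes 5 and 6 (exact permutation p = 0.0571, 4 against 4 mice) and 0.903 points in lanes 7 and 8 (exact permutation p = 0.314), where the smallest p that 4 against 4 allows is 0.0286. For *Gabrb1* it was -0.602 points in lanes 5 and 6 (exact permutation p = 0.0286) and -0.506 in lanes 7 and 8 (exact permutation p = 0.229). Without B6 mouse 8 and congenic mouse 1 the *Gabrb1* difference was -0.364 points (exact permutation p = 0.0647) and that of *Gabrd* 2.31 points (exact permutation p = 0.0122). Among the β genes alone, *Gabrb1* made up 13.7% ± 3.24 in B6 and 10.7% ± 1.31 in congenic mice (exact permutation p = 0.0118, n = 8 each), and *Gabrb2* the remainder.

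Markers of cortical neurons had lower means in congenic mice in these punches. Of 12 cortical glutamatergic genes, 6 were lower in congenic mice at an unadjusted edgeR p under 0.05 and 0 were higher, against 5.14% and 4.86% of all genes, with a median log2 fold change of -0.31, and their summed level was 662 to 869 CPM in B6 and 593 to 773 in congenic mice. A further 6 cortical genes, which the study had picked on these mice, were all lower at the same threshold (6 of 6), with a summed level of 381 to 641 CPM in B6 and 229 to 548 in congenic mice. Of 6 genes of the claustrum and lateral cortex, 5 were lower as well at that threshold. This list also holds genes that the study had picked on these mice, so its count is not independent of that choice. In none of these 3 lists did a gene pass an FDR of 5% (0 genes). In contrast, 0 of 15 striatal projection neuron genes passed in edgeR at an unadjusted p under 0.05 (FDR 5%, also 0), their median log2 fold change was 0.04, and their sum was 7820 to 11433 CPM in B6 and 8574 to 9887 in congenic mice. Of 7 interneuron genes 1 was lower, 1 of 6 hypothalamic and ventral forebrain genes was higher, and 0 of 4 thalamic, 0 of 7 oligodendrocyte and 0 of 7 astrocyte genes passed an unadjusted edgeR p under 0.05. No marker in these lists was at 0 in all mice.

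The 12 cortical genes were combined into a cortical score (log2 CPM of each gene standardized over mice, then averaged), which was 0.348 ± 0.499 in B6 and -0.348 ± 0.494 in congenic mice (exact permutation p = 0.0163, n = 8 each). Over the 16 mice *Gabra5* followed it most closely of the 7 genes, with Pearson's r = 0.808 (permutation p = 0.000240) and Spearman's rho = 0.771 (permutation p = 0.000760), an r higher than that of 99% of all genes. It held within B6 (r = 0.824), within congenic mice (0.557), within lanes 5 and 6 (0.671), within lanes 7 and 8 (0.878) and without the 2 mice farthest from the median score (0.695). *Gabra3* gave r = 0.604 (permutation p = 0.0131) and rho = 0.644 (permutation p = 0.00855), with 0.614 in B6, 0.082 in congenic mice, 0.711 in each lane pair and 0.471 without the 2 farthest mice. *Gabrb1* gave r = 0.479 (permutation p = 0.0612) and rho = 0.465 (permutation p = 0.0716), and its sign was not the same in B6 (0.554) and congenic mice (-0.371). With the score as a covariate in edgeR, 0 of the 7 genes were at an unadjusted p under 0.05, against 3 without it, and over all 15589 genes the number under that threshold was 373 with the score and 1559 without it. *Gabra5* was then at a log2 fold change of -0.05 ± 0.08 (SE, p = 0.482), *Gabra3* at -0.15 ± 0.08 (p = 0.0868) and *Gabrb1* at -0.38 ± 0.18 (p = 0.0506). Score and genotype move together in these mice, and how much of each difference belongs to either was not tested beyond this fit.

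A score of the striatal projection neuron genes was -0.143 ± 1.03 in B6 and 0.143 ± 0.327 in congenic mice (exact permutation p = 0.473, n = 8 each), and the α4 and δ genes followed it. *Gabrd* gave r = 0.797 (permutation p = 0.000210) and rho = 0.768 (permutation p = 0.000720), an r higher than that of 99.5% of all genes, with 0.934 in B6, 0.336 in congenic mice, 0.843 in lanes 5 and 6, 0.956 in lanes 7 and 8 and 0.710 without the 2 farthest mice. *Gabra4* gave r = 0.667 (permutation p = 0.00441) and rho = 0.626 (permutation p = 0.0112), with 0.874 in B6 and 0.388 in congenic mice, 0.520 and 0.808 in the lane pairs, and 0.400 without the 2 farthest mice, one of which is B6 mouse 8. *Gabra3* ran the other way, with r = -0.647 (permutation p = 0.00740), rho = -0.609 (permutation p = 0.0147), -0.853 in B6, -0.532 in congenic mice, -0.736 and -0.704 in the lane pairs and -0.734 without the 2 farthest mice. For the remaining pairs of gene and score, r lay between -0.421 and 0.450, among 14 relations computed, and these p-values are not adjusted for their number. With this score in the edgeR model *Gabra4* had a log2 fold change of -0.14 ± 0.04 (SE, p = 0.00565, FDR = 0.208), where it was at p = 0.116 without the score, and 4 members were then at an unadjusted p under 0.05, as were 2225 of all genes against 1559 without the score.

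**Figure D4:**
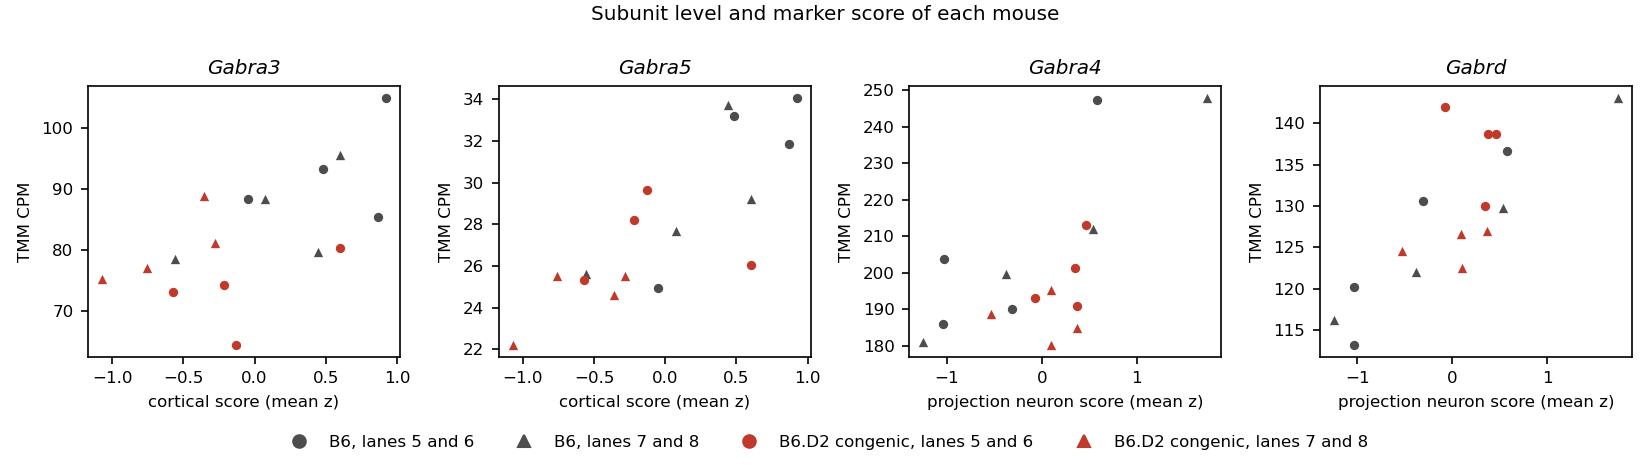
TMM-scaled CPM of each mouse (y axes, not from 0) against its cortical score for *Gabra3* and *Gabra5* and against its projection neuron score for *Gabra4* and *Gabrd* (x axes, mean standardized log2 CPM), with genotype by colour and lane pair by shape. *Gabra5* rises with the cortical score in both genotypes, and in the *Gabra4* and *Gabrd* plots B6 mouse 8 lies alone at the right, at a projection neuron score of 1.74.

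The members also varied with one another among mice of the same genotype. After removal of the genotype means from log2 CPM, *Gabra2* and *Gabrb2* had r = 0.778 over 16 mice (permutation p = 1e-04; rho = 0.835, permutation p = 0.000150), with 0.877 in B6, 0.785 in congenic mice, 0.911 and 0.816 in the lane pairs and 0.675 without B6 mouse 8 and congenic mouse 1. *Gabra4* and *Gabrd* had r = 0.745 (permutation p = 0.000680) and rho = 0.694 (permutation p = 0.00380), with 0.858 in B6, 0.432 in congenic mice, 0.598 and 0.892 in the lane pairs and 0.562 without the 2 mice farthest in *Gabra4*. *Gabra3* and *Gabrd* were opposed (r = -0.629, permutation p = 0.00871; rho = -0.668, permutation p = 0.00565), at -0.731 in B6, -0.499 in congenic mice, -0.546 and -0.746 in the lane pairs and -0.618 without the 2 farthest mice. In the other 18 of the 21 pairs r ran from -0.438 to 0.444, and for *Gabra4* and *Gabrb1*, whose RefSeq gene bodies overlap at the 5′ ends, it was 0.356 (permutation p = 0.178; rho = 0.247, permutation p = 0.356; 0.085 without the 2 farthest mice). Values of 1 library share its depth and tissue composition, and the p-values are not adjusted for the 21 pairs.

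For each member the 3 genes with the highest r of log2 CPM over the 16 mice, genotype means removed, were taken from all genes tested, as a description of likeness. Those of *Gabra3* were *Cdk14*, a cyclin-dependent kinase (r = 0.873), *Efr3a* (0.863) and *A930012L18Rik* (0.849). For *Gabra5* they were *Syn2*, a synaptic vesicle protein (0.843), *Vopp1* (0.841) and *Rap2b* (0.814). For *Gabrb1* they were *Eif2c3*, which encodes an Argonaute protein (0.944), *Tmem245* (0.930) and *Grin2a*, an NMDA receptor subunit (0.929). *Gabra4* was most like *4833424O15Rik* (0.906), *Tomm70a*, a mitochondrial import receptor (0.902), and *Nipa2* (0.900). *Gabrd* was most like *Cd4* (0.922), *Dfna5* (0.919) and *Akt2*, a kinase of insulin signalling (0.912). *Gabrb2* was most like *Lnp* (0.907), *Fxr1*, an RNA-binding protein (0.906), and *Fam126b* (0.898). The genes most like *Gabra2* were *Arhgap5* (0.957), *Vps13a* (0.956) and *4930470H14Rik* (0.952), and without congenic mouse 1 their r was 0.864, 0.853 and 0.861.

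Of 25 further genes of GABA synthesis, transport, metabotropic signalling, receptor anchoring and chloride transport, 1 was lower and 1 was higher at an unadjusted edgeR p under 0.05, against 5.14% and 4.86% of all genes, and the median log2 fold change was 0.02. *Gabbr2*, a subunit of the metabotropic GABA-B receptor, was at 101 ± 10.5 CPM in B6 and 75.9 ± 21.6 in congenic mice, with all 8 congenic mice below the B6 median (log2 fold change -0.42 ± 0.17 SE, edgeR quasi-likelihood p = 0.0230, FDR = 0.445). *Slc32a1*, the vesicular GABA transporter, was at 210 ± 12.7 and 225 ± 14.9 CPM, with all 8 congenic mice above the B6 median (log2 fold change 0.10 ± 0.05 SE, edgeR quasi-likelihood p = 0.0497, FDR = 0.499). The GABA-synthesizing enzymes *Gad1* and *Gad2* were at 702 ± 67.7 and 443 ± 28.5 CPM in B6 and at 773 ± 88.7 and 456 ± 50.4 CPM in congenic mice (edgeR quasi-likelihood p = 0.0758 and 0.541). *Gphn* (gephyrin), the scaffold that anchors these receptors at synapses, was at 92.8 ± 5.18 and 91.8 ± 3.03 CPM (edgeR quasi-likelihood p = 0.720).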

How the data were processed

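Striatal mRNA libraries (oligo-dT, stranded kit, single-end reads) were aligned by the authors to mm10 with TopHat and bowtie2 2.2.2. Gene counts were made by htseq-count 0.6.1p1 (union mode, strand not used). The deposited files hold raw counts per gene and lane, not normalized, without reads that aligned to several places or overlapped several genes. The authors' own comparison tables (fold changes, p-values and FDRs from an edgeR model with home cage) were not used.

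The lanes of 1 mouse agreed within sampling noise (chi-square per degree of freedom 0.997 to 1.05, genes with at least 20 counts) and were summed, so n is the number of mice. Depth was 19032826 to 33748353 counts per mouse. Groups follow the labels, and home cage was not in them, so the model held genotype only. That the mice are separate animals is stated by the labels. The labels give punches of 3 mm and an age of about 50 days, whereas the study's methods give a narrower punch and a range of ages that reaches higher.

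After filterByExpr and TMM scaling, edgeR 4.0.16 (R 4.3.3) gave quasi-likelihood p-values with Benjamini-Hochberg adjustment. The biological coefficient of variation was 13%. SEs were taken as the absolute log2 fold change over the root of F, and intervals are at 95%. A prior count of 0.5 entered log2 CPM. Single values and shares were compared with exact permutation tests and correlations with 100000 permutations (scipy 1.17.1, numpy 2.4.6). Scripts were tested on simulated data. Exon lengths came by symbol from GENCODE on mm9 and positions from RefSeq (GRCm38.p6). Promoter windows were found for 6 of the 7 genes.

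Alternatives tried were normalization by RLE or upper quartile, 2 other filters, DESeq2 1.42.0, the likelihood ratio test, the second lane alone, lane pair as a term, each lane pair alone, mouse number as a replicate block, each score as a covariate, other lengths and denominators for shares, and each mouse left out. Leaving out B6 mouse 8 and congenic mouse 1 together was added after the data were seen. The 7 genes, the gene lists and the tests were chosen with earlier results of these data known. Beyond the members, genes were named by rule: pathway genes at an unadjusted p under 0.05, *Gad1*, *Gad2*, *Slc32a1*, *Gphn*, 5 markers and the 3 genes most like each member.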

Additional observations from a re-analysis of the deposited data

Results flagged for a closer look

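Each of the 7 genes was searched for a mouse far from the others of its genotype, in CPM and in share, which made 28 searches. Of these, 2 values were set apart, and about 1 in 20 such searches finds one by chance. *Gabra2* in B6.D2 congenic mouse 1 was at 17.2 CPM, against 34.0 to 39.1 in the 7 other congenic mice. The share of *Gabra2* in the same mouse was 4.58%, against 8.60% to 9.37% in the others. Both values come from 1 library, which also had the lowest share of counts outside annotated genes and the highest share with several alignments. Its interneuron markers summed to 567 CPM, against 325 to 386 in the 7 other congenic mice. The part of these traits in the result was not tested.

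The genotype difference of *Gabra3* was not alike in the 2 lane pairs. Its log2 fold change was higher by 0.26 in lanes 7 and 8 than in lanes 5 and 6 (edgeR quasi-likelihood interaction p = 0.0469). In all 7 such interactions were tested, and over all genes the FDR of this one was 0.950.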

How the results depend on the processing

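The log2 fold changes of *Gabra3*, *Gabra4*, *Gabra5* and *Gabrb1* were below 0 in the main test and under all 30 alternatives, and no member passed an FDR of 5% under any of them. The lowest FDR over the alternatives was 0.154 for *Gabra3*, 0.237 for *Gabra5* and 0.118 for *Gabrb1*, and the highest was 0.958 for each. In mice of lanes 7 and 8 alone the sign turned for *Gabra2* (0.0604), *Gabrb2* (0.0469) and *Gabrd* (-0.034). The number of members at an unadjusted p under 0.05 was 3 in each leave-one-out fit and 0 with the cortical score as a covariate. It was 4 with the projection neuron score as a covariate and 3 without the 2 libraries that stand apart. In either lane pair alone, where 4 mice a genotype remain, it was 2. These were *Gabra3* and *Gabrb1* in lanes 5 and 6 and *Gabra5* and *Gabrb1* in lanes 7 and 8. The number over all genes moved as well, from 1559 in the main test to 373 with the cortical score and 2225 with the projection neuron score. It was 500 in lanes 5 and 6, 1407 in lanes 7 and 8 and 1990 without the 2 libraries. With 1 mouse left out it ran from 1107, without B6 mouse 2, to 2087, without congenic mouse 1. DESeq2 called 25 genes and the likelihood ratio test 20 genes of the whole table at an FDR of 5%, against 1 in the main test, none of them a member.

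For shares, the difference in percentage points changed sign for *Gabra2* with the α class as the denominator (0.378), in lanes 7 and 8 (0.808) and without B6 mouse 8 and congenic mouse 1 (0.0897), for *Gabra4* with the α class as the denominator (1.35) and in lanes 5 and 6 (0.92), and for *Gabrb2* in lanes 5 and 6 (-0.879). Leaving out 1 mouse gave -0.479 to 0.45 for *Gabra2* (above 0 without B6 mouse 2 or congenic mouse 1), -0.755 to 0.196 for *Gabra4* and -0.221 to 0.476 for *Gabrb2* (both turned without B6 mouse 8). It gave -1.44 to -0.895 for *Gabra3*, with exact permutation p between 0.0402 and 0.0449 without B6 mouse 3, B6 mouse 8 or congenic mouse 6, and -0.662 to -0.377 for *Gabra5*, with exact permutation p of 0.0486 and 0.0482 without congenic mouse 1 or 4. *Gabrb2* passed with the β class as the denominator (2.97, exact permutation p = 0.0118). With 2 genes in that class, this is the *Gabrb1* result with its sign turned, not a separate one. *Gabrb1* no longer passed in lanes 7 and 8 (-0.506) or without both libraries (-0.364), and *Gabrd* no longer passed in lanes 5 and 6 (4.19) or in lanes 7 and 8 (0.903). Leaving out 1 mouse kept the *Gabrb1* difference between -0.639 and -0.436 and that of *Gabrd* between 2.01 and 2.86, each past 0.05.

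Mice of the 2 genotypes share numbers in the labels, and same-numbered mice were run on the same lane pair. Their deviations from the genotype means correlated at r from -0.115 to 0.364 over the 8 pairs, above 0.1 in 3 of them, and no label ties a number to a litter or cage, so the numbers were not taken to pair the mice. With mouse number as a replicate block, the log2 fold changes were -0.22 for *Gabra3*, -0.21 for *Gabra5* and -0.45 for *Gabrb1*, with 3 members at an unadjusted p under 0.05, as without it. Over all genes 1377 were under that threshold with the block and 1559 without it. Of the 8 B6 mice, 2 correlated best with the congenic mouse of their own number.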
